A study of Mus musculus with 2 samples.

Results

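The genes described here encode 7 cathepsins, proteases that mostly work in endosomes and lysosomes: Ctse, Ctsl, Ctsb, Ctsd, Ctss, Ctsw and Ctsz. They are 7 of the 27933 gene symbols measured. They were named because Ctse and Ctsl differed between the libraries in earlier results of the same data, so the differences between the libraries below are a description of those data and carry no test. The measurements are single-cell RNA counts of thymocytes (T cells developing in the thymus) of 2 mouse samples. One is wild type. The other, called mutant here, carries on both alleles a mutated NMe, with GATA site 1 and 2 (GS1+2) changed. NMe is known as a remote enhancer of the growth regulator Myc that responds to NOTCH1 signalling in T cell precursors, and the transcription factor GATA3 reads GATA motifs in those cells. The labels name no strain, age, sex or number of animals. With 1 library per genotype, the effects of genotype, animal, dissociation and library cannot be told apart.

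Cathepsins fall into families by the chemistry of their active site. Ctsd and Ctse are aspartic proteases: Ctsd is the main one of lysosomes, and Ctse is an endosomal enzyme best known from the stomach lining and from immune cells. Ctsl, Ctsb, Ctss, Ctsw and Ctsz are papain-like cysteine proteases. In the thymus Ctsl is known for trimming the invariant chain (Cd74) from MHC class II molecules in cortical epithelium, a step that selection of CD4 T cells needs, while Ctss does this in B cells and dendritic cells. Ctsb is a broadly expressed lysosomal enzyme, Ctsz removes residues from the C terminus of peptides and is abundant in myeloid cells, and Ctsw is known from natural killer cells and CD8 T cells.

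Of the 7 genes, 4 had a RefSeq promoter sequence (GRCm38.p6, 250 bases before to 50 after the start), namely Ctsl, Ctsd, Ctss and Ctsz. The promoters of Ctsl and Ctsd are shown because these genes reached their highest level outside Cd74-rich cells at the double-positive stage in both libraries. Capitals mark each match to the E-box CACGTG, a palindrome, so that both strands read alike. The sequences run 5′ to 3′ on the minus strand, at chr13:64370471-64370770 for Ctsl and chr7:142387778-142388077 for Ctsd. GENCODE puts the 5′ end of the Ctsl gene at 64370890, so this whole window lies inside the gene as annotated there. For Ctsd that end is at 142388038, inside the window. The annotations thus place these starts differently.
Ctsl: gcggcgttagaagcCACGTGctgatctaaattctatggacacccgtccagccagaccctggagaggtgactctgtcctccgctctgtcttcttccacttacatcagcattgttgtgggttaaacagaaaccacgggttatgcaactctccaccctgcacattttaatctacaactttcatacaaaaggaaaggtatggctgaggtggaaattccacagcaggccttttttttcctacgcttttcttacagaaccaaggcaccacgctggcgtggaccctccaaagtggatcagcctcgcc
Ctsd: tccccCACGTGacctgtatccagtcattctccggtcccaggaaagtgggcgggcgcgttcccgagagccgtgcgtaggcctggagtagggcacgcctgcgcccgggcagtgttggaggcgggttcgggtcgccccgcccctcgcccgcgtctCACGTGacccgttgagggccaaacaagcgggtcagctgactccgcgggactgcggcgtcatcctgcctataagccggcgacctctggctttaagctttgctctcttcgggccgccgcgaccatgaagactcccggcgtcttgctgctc
The Ctsl promoter held 1 such E-box, at bases 15 to 20 of the window, and the Ctsd promoter held 2, at bases 6 to 11 and 153 to 158. Those of Ctss and Ctsz held 0. Of all 32851 promoters of this length, 7.15% held at least 1. GATA motifs (AGATAA, or AGATAG, or TGATAA, or TGATAG, on either strand) were found 2 times in the Ctsz promoter and 0 times in the other three, while 29.8% of all promoters held at least 1. A match is a description of letters and not a measured binding site.

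In wild type, 1346 barcodes carried 6638880 UMIs (unique molecular identifiers, which count captured RNA molecules), with a median per barcode of 3323.5. In mutant, 1737 barcodes carried 6364506 UMIs, with a median of 2596. After filtering, 1339 and 1725 cells remained. Cells were sorted into 7 stages by UMIs of marker genes, and a level is given as UMIs per 1000000 UMIs of that stage and library (CPM) with an exact Poisson 95% interval. The early stage (Il2ra, Hes1, Myl10) held 43 wild type and 144 mutant cells, cycling cells 515 and 247, resting double-positive cells 303 and 491, post-selection cells 92 and 132, mature cells 202 and 384, an innate-like gate 138 and 200, and Cd74-rich cells 8 and 47. The mix of stages thus differed between the libraries. T cell markers (Cd3d, Cd3e, Cd3g, Lck) were all detected in each stage, and summed to between 1012 CPM in wild type Cd74-rich cells and 9463 CPM in mutant early cells. The early gate was unequal: its own marker list was at 1743 CPM in wild type and 3855 CPM in mutant cells. The innate-like gate was impure, since 77 of its 138 wild type and 74 of its 200 mutant cells also passed the cycling gate, so it is called by its rule. Myc, the gene NMe acts on, was at 45.2 CPM (299 UMIs) in wild type and 23.3 CPM (147 UMIs) in mutant cells, a log2 ratio of -0.95 (interval -1.25 to -0.66). By stage the Myc ratio was -3.35 in early cells (-5.09 to -1.93), -0.86 in cycling cells (-1.51 to -0.25) and -1.52 in the innate-like gate (-2.06 to -1.01). Its interval held 0 in double-positive cells at -1.31 (-3.03 to 0.25), in mature cells at 0.09 (-0.71 to 0.93) and in post-selection cells at 1.28 (-0.23 to 3.08), and the Cd74-rich cells held 0 and 4 Myc UMIs.

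Over all cells, the mutant library had higher levels of 6 of the 7 cathepsins and the ratios spanned a wide range. The log2 ratio of mutant over wild type was 3.48 for Ctse, 2.14 for Ctsl, 1.40 for Ctsw, 1.11 for Ctss, 0.53 for Ctsb, 0.49 for Ctsd and -0.08 for Ctsz, against a median of 0.05 over the 2965 genes that passed the filter on low counts. That filter asks for at least 50 CPM in 1 library and 20 UMIs in both together, and all 7 cathepsins passed it over all cells. With 5 CPM added to both sides, 3 of the 7 (Ctse, Ctsl and Ctsw) had a log2 ratio past 1 on the higher side, as did 2.12% of all genes. On the lower side it was 0 of 7, against 0.540% of genes. Ctss lay just short of 1, with the fourth highest value of the 7. Ctse had the second highest value of all genes and Ctsl the sixth. Of those 3, Ctse (6.81 CPM in wild type, 75.9 in mutant) and Ctsw (31.3 and 82.4) passed the filter only through the mutant library. None of this stands as support, since the genes were picked on this contrast.

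Giving both libraries the same mix of stages left Ctse and Ctsl far apart and, Ctsz excepted, brought the others closer. At an equal mix, the log2 ratio was 3.17 for Ctse and 2.33 for Ctsl. Ctss stood at 0.15 and Ctsw at 0.84, while Ctsb was at 0.29, Ctsd at 0.31 and Ctsz at -0.24. Ctss thus differed over all cells beside a larger share of mature and Cd74-rich cells in the mutant library, and in no single stage did its interval leave out 0.

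Ctse, the endosomal aspartic protease (chromosome 1, 131638306 to 131675505, plus strand, GRCm38), was near the detection limit in wild type cells and at a similar moderate level in every stage of the mutant. In the wild type library it was at 4.80 CPM in early cells (1 UMI), 3.70 in cycling (12 UMIs), 10.9 in double-positive (8), 7.93 in post-selection (2), 16.6 in mature (11), 6.51 in the innate-like gate (9) and 25.9 in Cd74-rich cells (1). In the mutant library it was at 81.6 CPM in early cells (36 UMIs), 59.3 in cycling (85), 85.8 in double-positive (85), 84.3 in post-selection (28), 92.1 in mature (121), 65.5 in the innate-like gate (93) and 78.0 in Cd74-rich cells (15). Each mutant stage lay above each wild type stage. No pair of neighbours in the order of stages differed beyond counting error in either library, but some stages further apart did. The double-positive level was 1.45 times (interval 1.06 to 1.98) that of cycling cells in mutant and 2.95 times (1.05 to 7.85) in wild type. The mutant level in the innate-like gate was 0.71 times (0.54 to 0.94) that of mature cells.

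In cycling cells the mutant Ctse level was 16.0 times (8.72 to 32.3) that of wild type. The Ctse log2 ratio was 4.09 in early cells (1.52 to 9.43), 2.97 in double-positive (1.93 to 4.23), 3.41 in post-selection (1.42 to 6.53), 2.47 in mature (1.58 to 3.52) and 3.33 in the innate-like gate (2.34 to 4.50). Only the Cd74-rich interval held 0, at 1.59 (-1.11 to 6.98), with 1 wild type UMI behind it. In cells thinned to 1500 UMIs, a Ctse UMI was found in 0.971% of 1339 wild type cells (exact Clopper-Pearson interval 0.518 to 1.65) and in 11.7% of 1629 mutant ones (10.1 to 13.3). Without thinning the shares were 3.29% and 22.5%. No cell held more than 2 UMIs in wild type or 4 in mutant. The difference was thus spread over many cells with few UMIs each.

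Ctse in the mutant library was as high in Cd74-rich cells as in T-lineage cells within counting error. In mutant Cd74-rich cells it stood at 90.9% (48.8 to 159) of its level in double-positive cells, whereas the double-positive marker list stood at 10.3% (8.77 to 12.0) and Ctsl at 3.01% (1.21 to 6.21). Of thinned mutant cells, 6 of 46 Cd74-rich and 59 of 427 double-positive cells had a Ctse UMI, at median depths of 2659 and 1830 UMIs before thinning. Macrophage markers summed to 2798 CPM in mutant Cd74-rich cells and 71.6 CPM in double-positive cells, and B cell markers to 3307 and 68.6. How much of the Ctse signal came from RNA free in the suspension was not tested.

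Ctsd, the main lysosomal aspartic protease (chromosome 7, 142375911 to 142388038, minus strand), peaked in double-positive cells of both libraries. Over all cells its log2 ratio between them was 0.49 (0.36 to 0.63). Its levels were 275.8 CPM in wild type and 320.9 CPM in mutant double-positive cells, from 202 and 318 UMIs. Against the next stage in order, the double-positive level was higher by a log2 ratio of 0.69 (0.21 to 1.20) over post-selection cells in wild type and 0.62 (0.28 to 0.97) over early cells in mutant. The other stages ran from 79.6 to 170.5 CPM in wild type and from 67.6 to 208.5 CPM in mutant. Between the libraries, intervals above 0 were found in 2 of 7 stages, in early cells with 1.27 (0.53 to 2.09) and in the innate-like gate with 0.87 (0.53 to 1.21). The early value was 0.24 (-0.79 to 1.41) in thinned cells, and the innate-like one 0.58 (-0.01 to 1.21) with a gate set after the cycling gate. The double-positive ratio was 0.22 (-0.04 to 0.48). It was 0.58 (0.33 to 0.83) with higher gate thresholds, 0.34 (0.09 to 0.59) with gates on thinned cells and 0.06 with the same lowest UMI total in both libraries. The cycling ratio was 0.23 (-0.06 to 0.52). It was 0.42 (0.12 to 0.72) with lower gate thresholds and -0.22 (-0.85 to 0.38) in thinned cells. A second annotated gene, Gm49369, overlaps Ctsd on the same strand, so reads could be split between them.

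Ctsl, the cysteine protease of class II processing (chromosome 13, 64359337 to 64370890, minus strand), showed both a strong stage pattern and a large difference between the libraries. In wild type cells it was at 43.2 CPM in early cells (9 UMIs), 103.6 in cycling (336), 158.4 in double-positive (116), 51.6 in post-selection (13), 19.6 in mature (13), 68.0 in the innate-like gate (94) and 233.5 in Cd74-rich cells (9). In mutant cells it was at 83.9 CPM in early cells (37 UMIs), 543.8 in cycling (779), 1210.8 in double-positive (1200), 207.8 in post-selection (69), 57.1 in mature (75), 210.5 in the innate-like gate (299) and 36.4 in Cd74-rich cells (7). Outside Cd74-rich cells both libraries were therefore lower in early cells, higher in cycling cells, highest in double-positive cells and lowest in mature cells. In that order, the early and mature levels did not differ beyond counting error in either library, and nor did those of the innate-like gate and post-selection cells. The antisense gene Gm47123 and the pseudogene Gm49230 overlap Ctsl in GENCODE, and whether the counting used strand is not given in the sources used here.

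These contrasts between stages were larger in the mutant. The double-positive level was 3.66 times (1.86 to 8.22) the early level in wild type and 14.4 times (10.4 to 20.6) in mutant. It was 8.09 times (4.55 to 15.7) the mature level in wild type and 21.2 times (16.8 to 27.2) in mutant. Double-positive cells gave 19.6% of all wild type Ctsl UMIs and 48.4% of those in the mutant. These shares also depend on the mix of stages. Double-positive cells were 22.6% of wild type and 28.5% of mutant cells. They held 732375 of 6610549 UMIs of all genes in wild type and 991083 of 6297408 in mutant. Intervals for the step from early to double-positive cells did not overlap, and those for the step from double-positive to mature cells also did not. The early wild type value rests on 9 UMIs. Over 16 alternatives, the Ctsl log2 ratio between the libraries ran from 0.64 to 2.52 in early cells. It ran from 2.76 to 3.12 in double-positive and from 0.79 to 2.04 in mature cells. The size of the early contrast thus depends on the setting, and the steps between stages were not recomputed.

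**Figure D1:**
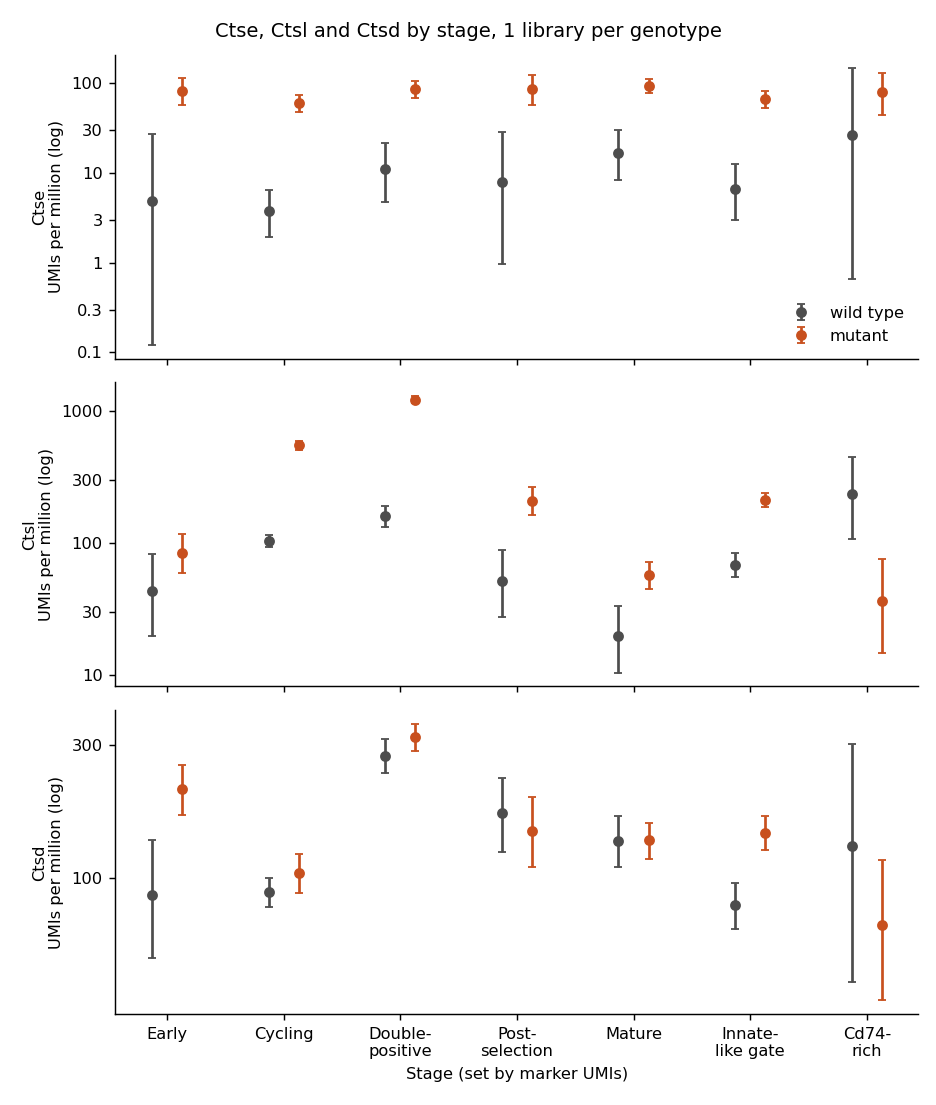
Levels of Ctse, Ctsl and Ctsd in CPM (log axes) in 7 stages; points are the sum over cells of 1 library and bars exact Poisson 95% intervals. Ctse runs from 59.3 to 92.1 in the mutant, Ctsl reaches 1210.8 in mutant double-positive cells, and Ctsd is highest in double-positive cells in both libraries.

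The Ctsl log2 ratio was largest in double-positive cells, at 2.93 (2.66 to 3.22), followed by cycling cells at 2.39 (2.21 to 2.58), post-selection cells at 2.01 (1.14 to 2.99), the innate-like gate at 1.63 (1.29 to 1.98) and mature cells at 1.54 (0.68 to 2.52). With all gate thresholds raised at once, the mature one by 2 UMIs, the mature value was 0.79 (-0.12 to 1.81). In early cells it was 0.96 (-0.12 to 2.19), with an interval that held 0. That interval lay above 0 with lower gate thresholds, at 2.30 (1.26 to 3.55), with the early gate set before the cycling gate (0.18 to 1.90), and with the same lowest UMI total in both libraries, at 1.08 (0.0018 to 2.32). Relative to the median gene of each stage, which was shifted by 0.17 in cycling and 0.13 in double-positive cells, the values were 2.22 and 2.80. Within mature cells, the CD8 cells had 24.0 CPM in wild type (7 UMIs) and 97.6 in mutant (40 UMIs), a log2 ratio of 2.02 (0.85 to 3.43). The CD4 cells had 24.4 (2 UMIs) and 17.1 (5 UMIs), with an interval of -3.12 to 2.88. Whether CD4 and CD8 cells differed in this ratio was not tested. The double-positive marker list, which holds Cd8a and Cd8b1, summed to 1613 and 1604 CPM in the CD8 cells. In the CD4 cells it summed to 500 and 462 CPM. Rag1 was detected in the CD8 cells of both libraries and in the CD4 cells of neither. How many CD8 calls were double-positive cells without a Cd4 UMI was not tested.

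Per cell, most double-positive cells of the mutant carried Ctsl RNA. In thinned cells 19.8% of wild type (15.5 to 24.7) and 73.8% of mutant double-positive cells (69.3 to 77.9) had a UMI. The matching share in mutant Cd74-rich cells was 4.35% of 46 cells, a kind of cell led by other markers, at a median depth of 2659 UMIs against 1830 in double-positive cells. Unthinned, the mean was 0.383 UMIs per cell in wild type and 2.44 in mutant, 71.3% and 21.2% of cells held none, and 12 mutant but 0 of 303 wild type cells held 10 or more. Cycling cells went the same way, with means of 0.652 and 3.15 UMIs per cell. Of thinned mutant double-positive cells, 81.4% of the 59 with a Ctse UMI (69.1 to 90.3) and 72.6% of the 368 without (67.7 to 77.1) had a Ctsl UMI. In mutant cycling cells these shares were 63.2% of 19 (38.4 to 83.7) and 41.2% of 226 (34.7 to 47.9). In both stages the intervals overlapped.

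**Figure D2:**
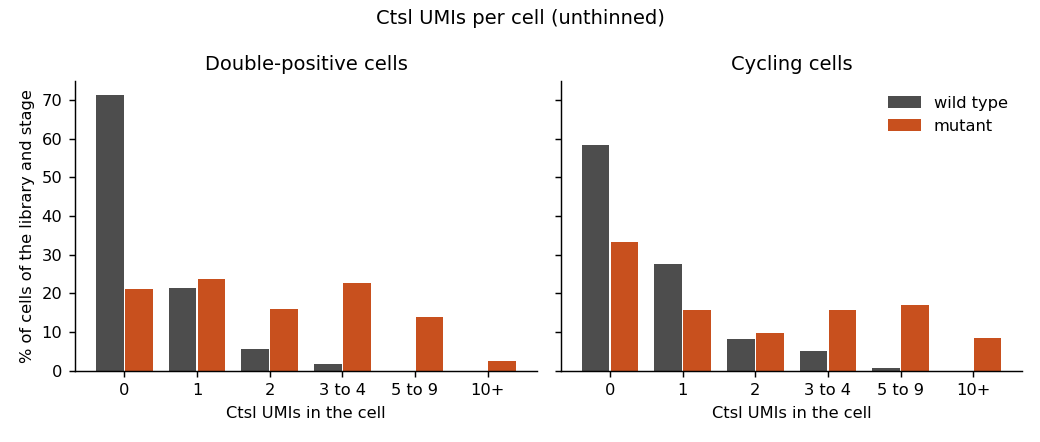
Share of cells (%, y axis) by the number of Ctsl UMIs in the cell (x axis, unthinned), for double-positive and cycling cells of each library. In double-positive cells 71.3% of wild type and 21.2% of mutant cells hold 0 UMIs.

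Among the 3290 genes that passed the filter in double-positive cells, 2 of the 5 cathepsins that passed (Ctse and Ctsl) had a log2 ratio past 1 on the higher side with 5 CPM added, against 2.04% of all genes. Ctsl had the third highest value of these genes, 2.90, and Ctse the sixth, 2.51. Ctsb, Ctsd and Ctsz were within 0.39 of 0. In early cells 2 of 4 members were past it (Ctse and Ctsd) against 10.5% of genes, in cycling cells 2 of 5 (Ctse and Ctsl) against 1.90%, and in post-selection cells 3 of 5 (Ctse, Ctsl and Ctsz) against 4.70%. In mature cells 2 of 6 (Ctse and Ctsl) were past it against 0.243%, and in the innate-like gate 3 of 6 (Ctse, Ctsl and Ctsw) against 2.86%. In Cd74-rich cells 0 of 3 were past it on the higher side, where 17.3% of genes were, and 2 of 3 (Ctsb and Ctsz) on the lower side, where 7.42% were. On the lower side, 0 members were past it in the other stages, where the share of genes was 2.00% in early, 0.459% in cycling, 0.608% in double-positive, 1.49% in post-selection, 0.364% in mature cells and 0.424% in the innate-like gate. Wherever Ctse passed the filter it did so only through the mutant library, as its wild type level was at most 25.9 CPM. The same held for Ctsl in mature cells (19.6 CPM in wild type, 57.1 in mutant) and Ctsz in post-selection cells (31.7 and 69.3). Their place among the counts on the higher side was thus partly set by the filter. The members that passed the filter are not all of the 7, and these shares are given for reading the counts only.

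**Figure D3:**
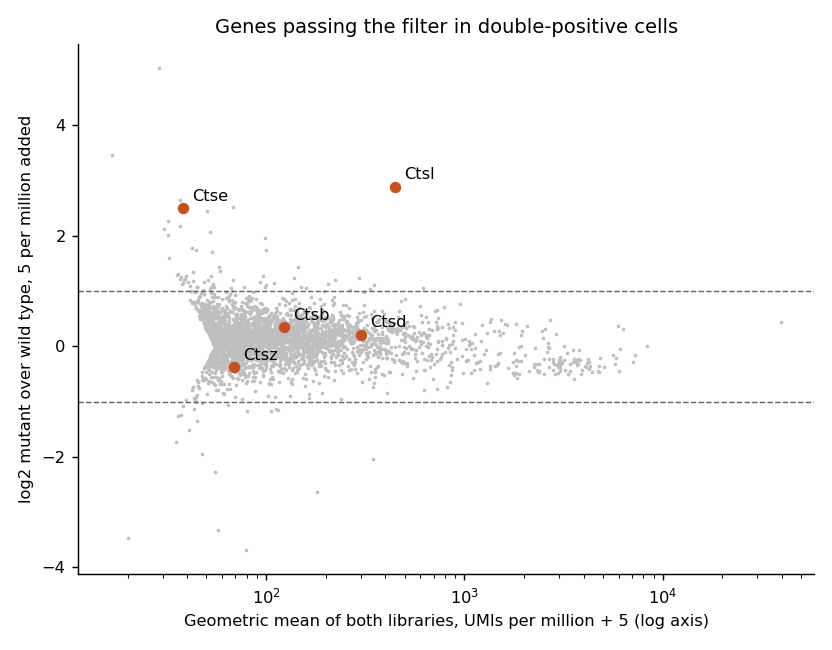
Genes passing the filter in double-positive cells: x axis, geometric mean of both libraries (CPM + 5, log axis); y axis, log2 ratio of mutant over wild type with 5 CPM added; dashed lines mark 1 and -1. Ctsl (2.90) and Ctse (2.51) lie far above the cloud, and Ctsb, Ctsd and Ctsz inside it.

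In Cd74-rich cells Ctsl ran the other way, on very few cells. The 8 wild type cells held 9 Ctsl UMIs and the 47 mutant cells 7, a log2 ratio of -2.68 (-4.34 to -1.09). One wild type cell held 88.9% of the wild type UMIs, and without the richest cell of each library the value was -0.90 (-4.24 to 4.72). It was -1.21 (-2.50 to 0.16) with lower gate thresholds and -0.46 (-3.62 to 5.10) with gates on thinned cells. Between the B cell and macrophage lists alone, B cell markers led in 6 wild type and 34 mutant Cd74-rich cells. Macrophage markers led in 2 and 8. The rest of the 47 mutant cells had equal counts of both lists and were in neither subgroup. Dendritic cell markers were not part of that comparison. Over all wild type Cd74-rich cells they summed to 3010 CPM, above B cell markers with 1920 CPM. They were also above the leading list in both wild type subgroups (2830 against 2464 CPM for B cell, 3644 against 1881 CPM for macrophage markers). Over all mutant Cd74-rich cells they were lower, with 1815 against 3307 CPM for B cell markers. Of these 349 mutant dendritic cell marker UMIs, the subgroup led by B cell markers held 62 and that led by macrophage markers 96. The others were in the mutant cells of neither subgroup. The macrophage marker list summed to 882 CPM in the wild type cells, with 4 of its 8 genes detected (Lyz2 and Apoe at 415 CPM each, C1qb and Csf1r at 1 UMI each), and to 2798 CPM in the mutant cells, with all 8 detected. In the wild type Cd74-rich cells 3 UMIs make 77.8 CPM, so a count of 0 there sets no tight limit. The part of this difference in cell makeup in the Ctsl value was not tested.

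Ctsb, the broad lysosomal cysteine protease (chromosome 14, 63122462 to 63145923, plus strand), was highest in Cd74-rich cells of both libraries. There it was at 622.7 CPM in wild type (24 UMIs) and 270.4 CPM in mutant (52 UMIs), against 65.4 and 94.0 CPM in all other cells, so 9.52 times (6.03 to 14.4) and 2.88 times (2.12 to 3.82) as high. Single cells weighed heavily, with 70.8% of the wild type and 42.3% of the mutant UMIs in 1 cell each. In the Cd74-rich cells led by macrophage markers (2 wild type, 8 mutant) the Ctsb level was 588 CPM in wild type (5 UMIs) and 591 in mutant (34 UMIs). In those led by B cell markers it was 633 CPM in wild type (19 UMIs) and 71.9 in mutant (8 UMIs), a log2 ratio of -3.14 (-4.54 to -1.88). The wild type cell with 70.8% of the UMIs was among these, as the cells led by macrophage markers held 5 UMIs. This ratio thus rests largely on 1 cell, and it was not calculated without that cell. The log2 ratio over Cd74-rich cells was -1.20 (-1.93 to -0.44), and -0.69 (-1.90 to 0.75) without the richest cell of each library.

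Among T-lineage stages Ctsb ran from 38.4 to 103.8 CPM in wild type and from 65.6 to 133.2 CPM in mutant, and was highest in double-positive cells in both. Neighbours in that order did not differ beyond counting error in either library, but stages further apart did. The Ctsb double-positive level was 1.65 times (1.25 to 2.16) the cycling level in wild type and 2.03 times (1.55 to 2.67) in mutant. It was 2.03 times (1.34 to 3.13) and 1.38 times (1.07 to 1.77) the mature level. Against post-selection cells the interval held 1 in both libraries. Mature cells had 51.2 CPM in wild type (34 UMIs) and 96.7 in mutant (127 UMIs), a log2 ratio of 0.92 (0.36 to 1.51), which was 0.57 (-0.21 to 1.41) in thinned cells. In the innate-like gate it was 0.60 (0.19 to 1.01), but -0.06 (-0.79 to 0.70) with the gate set after the cycling gate. The double-positive ratio was 0.36 (-0.06 to 0.79), with 0.64 (0.26 to 1.04) at higher gate thresholds and 0.06 in thinned cells. The post-selection ratio was 0.83 (-0.0026 to 1.71). It was 1.26 (0.40 to 2.20) at lower gate thresholds and 0.74 with scaling that left out ribosomal protein and mitochondrial genes. In cycling cells the libraries had 62.9 and 65.6 CPM. The gene Fdft1 overlaps Ctsb on the other strand.

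Ctsz, the carboxypeptidase (chromosome 2, 174427493 to 174439039, minus strand), was the member with the least difference between the libraries over all cells, at 55.1 CPM (364 UMIs) and 52.2 CPM (329 UMIs). Like Ctsb it stood out in Cd74-rich cells, with 441.1 CPM in wild type (17 UMIs) and 213.2 in mutant (41 UMIs), or 8.35 times (4.81 to 13.6) and 4.52 times (3.18 to 6.28) the level of the other cells. Elsewhere it was between 31.7 and 73.7 CPM, and no neighbours in the order of those stages differed beyond counting error. Of stages further apart, the Ctsz double-positive level was 2.23 times (1.33 to 3.84) the mature level in wild type and 1.62 times (1.07 to 2.46) in mutant. Against early cells the interval held 1 in both libraries. Post-selection cells had 31.7 CPM in wild type and 69.3 in mutant cells, from 8 and 23 UMIs, with an interval of -0.08 to 2.50 on the log2 scale. In cycling cells the log2 ratio was -0.41 (-0.87 to 0.03), and -0.59 (-1.05 to -0.15) relative to the median gene. The Cd74-rich ratio was -1.05 (-1.90 to -0.14), and -0.80 (-1.78 to 0.28) without the richest cell of each library.

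Ctss, the class II processing enzyme of B and dendritic cells (chromosome 3, 95526786 to 95556403, plus strand), was low in some stages and high in others, and in 0 of 7 stages did the libraries differ beyond counting error. In wild type cells it was at 4.80 CPM in early cells, 2.77 in cycling, 10.9 in double-positive, 15.9 in post-selection, 150.6 in mature, 46.3 in the innate-like gate and 493 in Cd74-rich cells. In mutant cells Ctss was at 4.53 CPM in early cells, 3.49 in cycling, 7.06 in double-positive, 36.1 in post-selection, 184.9 in mature, 43.7 in the innate-like gate and 462.8 in Cd74-rich cells. The pseudogene Hmgb1-ps5 overlaps Ctss on the same strand. Ctss was therefore low up to the double-positive stage and high in mature and Cd74-rich cells in both libraries. The mature level was 13.8 times (6.73 to 32.8) the double-positive level in wild type and 26.2 times (12.5 to 65.8) in mutant.

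Within mature cells Ctss was higher in CD4 than in CD8 cells. CD4 cells had 292.4 CPM in wild type (24 UMIs) and 239.6 in mutant (70 UMIs), and CD8 cells 137.3 (40 UMIs) and 163.6 (67 UMIs). The log2 ratio of CD8 over CD4 cells was -1.09 (-1.86 to -0.30) in the wild type library and -0.55 (-1.06 to -0.05) in the mutant library. The limit of the CD8 calls given for Ctsl applies here, as Ctss was low in double-positive cells. The libraries themselves differed by 0.30 (-0.05 to 0.65) in mature and -0.09 (-0.82 to 0.71) in Cd74-rich cells. One wild type cell of the innate-like gate held 24 Ctss UMIs, 37.5% of the total there. Without cells rich in macrophage or B cell markers the innate-like ratio was 1.00 (0.29 to 1.73), against -0.08 (-0.61 to 0.44) with them, and with the later gate described for Ctsw it was -0.95 (-1.51 to -0.39). With lower gate thresholds the Cd74-rich ratio was -0.86 (-1.39 to -0.31).

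Ctsw, the cathepsin of cytotoxic lymphocytes (chromosome 19, 5465043 to 5468507, minus strand), was highest in mature cells in both libraries. There it was at 128 CPM in wild type (85 UMIs) and 180.4 in mutant (237 UMIs), followed by the innate-like gate at 59.3 (82 UMIs) and 139.4 (198 UMIs). Other stages ran from 4.62 to 51.9 CPM in wild type and from 11.3 to 36.4 in mutant. The mature level was 9.37 times (4.86 to 20.3) the double-positive level in wild type and 7.77 times (5.06 to 12.5) in mutant. Wild type Ctsw levels were 157.9 CPM in mature CD8 and 73.1 CPM in mature CD4 cells, and mutant levels 234.4 and 150.6 CPM. In the mutant CD8 cells exceeded CD4 cells by a log2 ratio of 0.64 (0.11 to 1.19), and in wild type by 1.11 (-0.12 to 2.63). The limit of the CD8 calls given for Ctsl applies to these values too.

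A gate on the innate-like markers without Gzma, set after the cycling gate and chosen after the data were seen, kept 48 wild type and 85 mutant cells. In these Ctsw was at 246.4 CPM (61 UMIs) and 419.5 CPM (183 UMIs), above mature cells in both libraries. Between the libraries, the Ctsw log2 ratio was 0.49 (0.13 to 0.87) in mature cells and 1.23 (0.85 to 1.62) in the innate-like gate as first set. In that gate it was 0.76 (0.02 to 1.55) after thinning, and with the later gate it was 0.77 (0.34 to 1.21). In mature cells it was 0.18 (-0.35 to 0.73) after thinning. In cycling cells the ratio of 1.66 (0.64 to 2.72) rested on 15 and 21 UMIs, and was -0.29 (-1.59 to 0.87) with higher gate thresholds. Fibp overlaps Ctsw on the other strand, and Nelfcd overlaps Ctsz likewise.

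**Figure D4:**
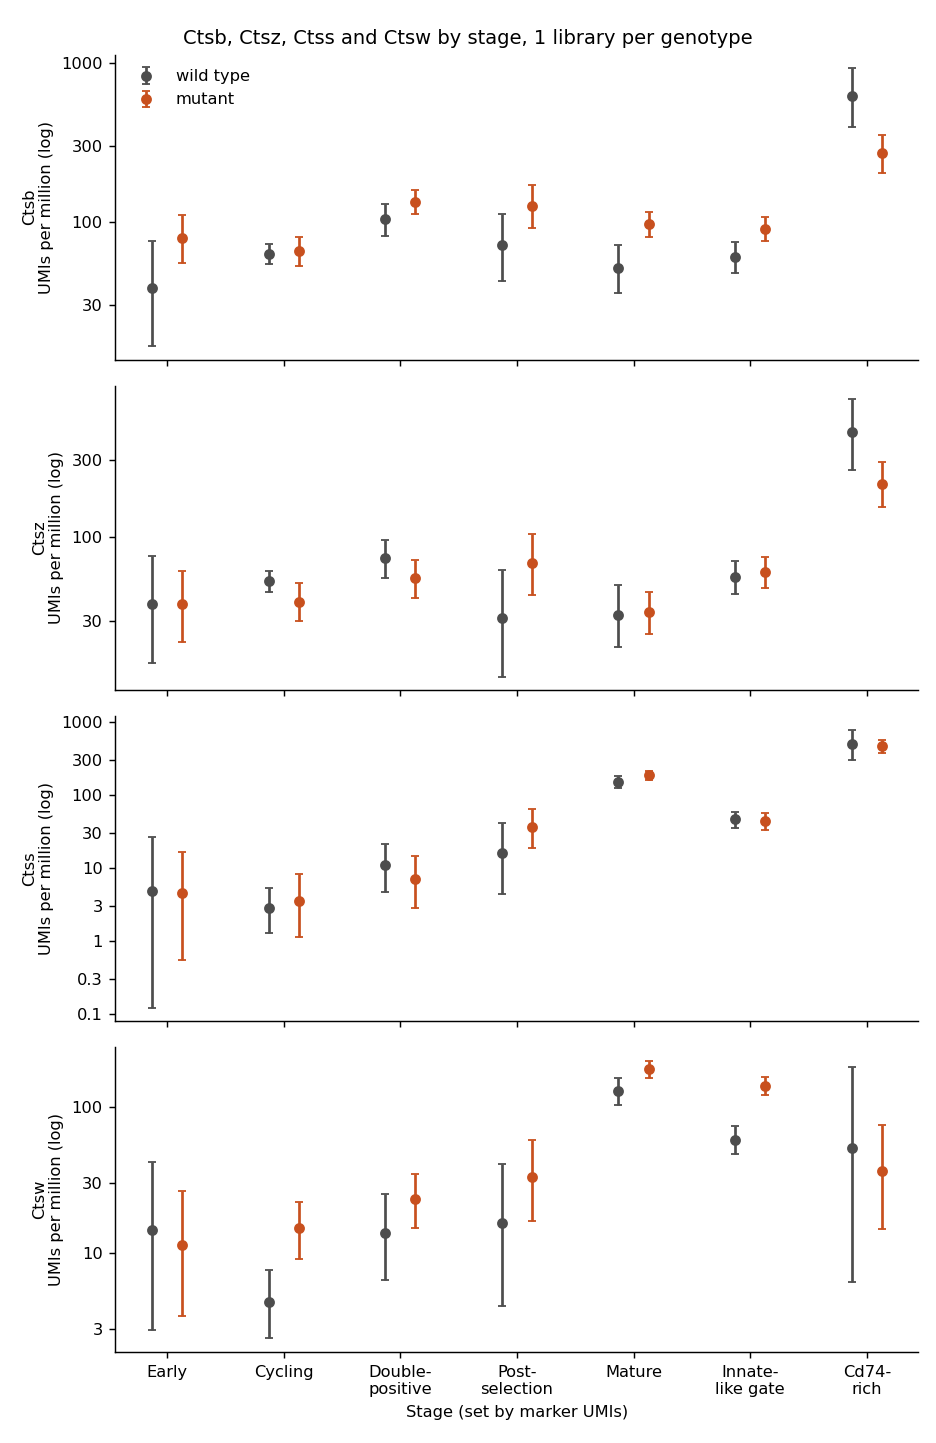
Levels of Ctsb, Ctsz, Ctss and Ctsw in CPM (log axes) in 7 stages, with exact Poisson 95% intervals. Ctsb, Ctsz and Ctss are highest in Cd74-rich cells and Ctsw in mature cells, in both libraries.

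Across the 7 stages, the interval of the ratio lay above 0 in 6 stages for Ctse, 5 for Ctsl, 3 for Ctsw, 2 for Ctsb, 2 for Ctsd, 0 for Ctss and 0 for Ctsz. It lay below 0 in 1 stage each for Ctsl, Ctsb and Ctsz, which was the Cd74-rich stage. The intervals cover counting error only, with no spread between animals.

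**Figure D5:**
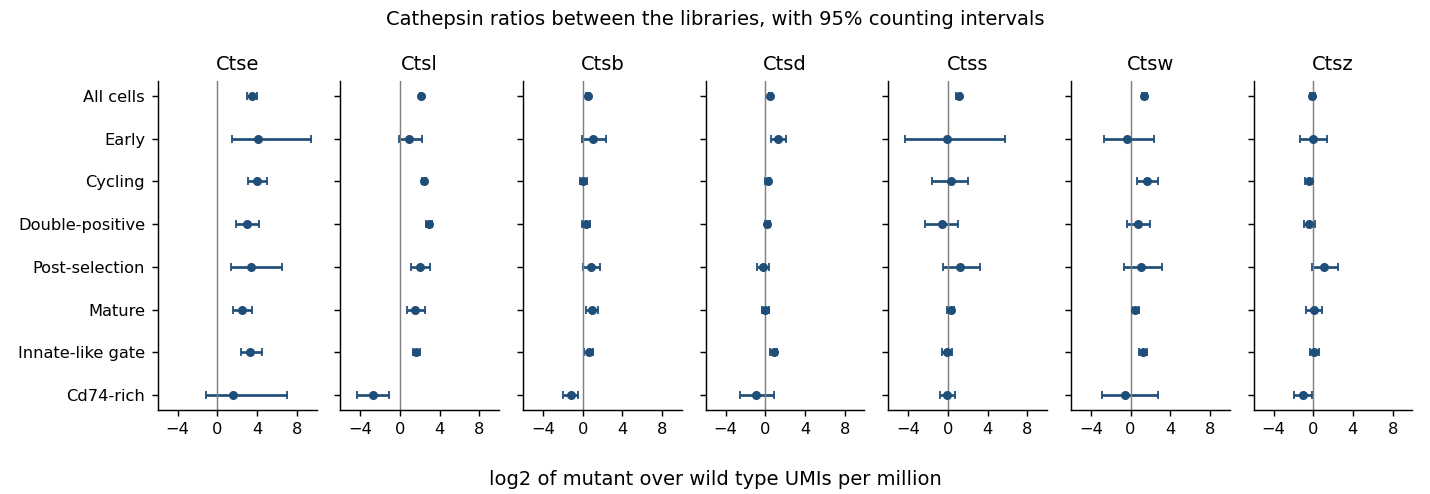
The log2 ratio of mutant over wild type (x axis) with exact 95% counting intervals for each cathepsin, over all cells and in each stage (y axis). Ctse lies right of 0 in all stages, with an interval holding 0 in Cd74-rich cells, and Ctsl does so in all but Cd74-rich cells.

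Among the lists of related genes, only that of class II presentation held genes past a log2 ratio of 1 over all cells. Of 18 other cathepsin and related protease genes, 2 passed the filter over all cells and neither was past it: Ctsc, which activates granule serine proteases, had levels of 29.3 (wild type) and 53.7 CPM (mutant), with a log2 ratio of 0.87 (0.61 to 1.13). Ctsa, a lysosomal carboxypeptidase, was at 41.9 and 56.7, with a ratio of 0.44 (0.21 to 0.67). Of 15 protease inhibitor genes 2 passed. Cstb, an inhibitor inside the cell, was at 93.6 and 109 CPM with a ratio of 0.22 (0.07 to 0.38), and Cst3, a secreted one, at 164 and 161 CPM with -0.03 (-0.15 to 0.10).

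Of 34 lysosome genes, 10 passed and all 10 had a ratio above 0, as did 1669 of all 2965 genes, with a median of 0.28 against 0.05 for all genes, and 0 of 10 were past 1. The highest were Ppt1, a lysosomal thioesterase, at 0.72 (0.59 to 0.85), and Laptm5, a lysosomal membrane protein of blood cells, at 0.44 (0.36 to 0.53). The lowest were Lipa, the lysosomal acid lipase, at 0.15 (-0.06 to 0.36), and Scarb2, a lysosomal membrane protein, at 0.12 (-0.12 to 0.35). Above 0 were 8 of 9 lysosome genes in early, 9 of 10 in cycling, 10 of 11 in double-positive, 5 of 11 in post-selection and 7 of 9 in mature cells, and 8 of 8 in the innate-like gate. Of all genes, 1977 of 3004 were above 0 in early, 2285 of 3052 in cycling, 2146 of 3290 in double-positive, 1868 of 3231 in post-selection and 1368 of 2470 in mature cells, and 1853 of 2828 in the innate-like gate. Cd74-rich cells went the other way, with 3 of 10 lysosome genes above 0 against 862 of 1442 genes. Of 10 class II presentation genes 4 passed over all cells, all above 0: H2-Eb1 at 2.06 (1.78 to 2.35), H2-Aa at 1.59 (1.37 to 1.82), Cd74 at 1.48 (1.36 to 1.61) and H2-Ab1 at 0.84 (0.62 to 1.06). Within Cd74-rich cells all 10 passed, with 2 above 0 and 8 below. Cd74 sets the Cd74-rich gate, whose share of cells was 0.597% in wild type and 2.72% in mutant.

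The genes most like Ctse and Ctsl were found by Pearson correlation of log2(CPM + 5) over 12 sums, those of 6 stages in 2 libraries with at least 20 cells each, among 4496 genes. The sums share libraries and depth, so these values are descriptions. For Ctse they were Cap1 (0.96), Slc15a2 (0.91), Aspscr1 (0.87), Ppp1r12a (0.86) and Arf5 (0.85). Cap1, an actin regulator, ranged from 24.0 to 49.7 CPM over the wild type stages and from 102 to 178 over the mutant stages, so these did not overlap. Slc15a2, a peptide transporter, reached 0.308 CPM at most in wild type and between 4.89 and 50.4 in mutant. For Ctsl they were Lin37 (0.92), Syt13 (0.91), Sin3b (0.90), Dctn2 (0.90) and Med25 (0.90). Sin3b, a corepressor subunit, ranged from 82.8 to 324.7 CPM in wild type, highest in cycling cells, and from 111.9 to 472.2 in mutant, highest in double-positive cells. Syt13, a synaptotagmin, was at most at 46.2 CPM in wild type and at 189.7 in mutant, where it too was highest in double-positive cells.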

How the data were processed

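Single-cell RNA of 1 wild type and 1 mutant thymocyte suspension (5000 cells loaded each) was measured with 10x Chromium 3′ v2 reagents, per the labels' protocols. The authors deposited tables of unnormalized UMI counts, 1 row per barcode and 1 column per gene symbol. They used Cell Ranger and mm10, per the submitters' processing notes, with versions not given in the sources used here. The lowest totals per barcode were 1781 and 1416 UMIs, so a lower limit differed between the libraries. The libraries shared 1 barcode sequence.

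Barcodes with at least 400 genes and at most 10% mitochondrial UMIs were kept, which left out 5 and 6. Scrublet (Scanpy 1.11.5, expected rate 4%) called 2 and 6 doublets, which were left out, leaving 3064 of 3083 barcodes. So few calls mean that doublets remain, and the 4% of cells with the highest scores were left out as an alternative. Cells passed gates in this order: Cd74-rich (at least 10 Cd74 UMIs), innate-like (4 UMIs over 11 genes), cycling (30 per 10000 UMIs over 27 genes), early (3), mature (3), post-selection (5) and double-positive (3); the rest were ungated. Mature cells with Cd4 but no Cd8a or Cd8b1 UMIs were called CD4, and the reverse CD8. Counts were summed per stage and library. Intervals are exact at 95% (Poisson for levels, conditional binomial for ratios, Clopper-Pearson for shares of cells thinned to 1500 UMIs) and cover counting error only; 96 mutant and 0 wild type cells were too shallow to thin. The calculations were tested on simulated data.

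The 7 members, the gene lists and the tests were chosen with earlier results of these data known. Genes other than members were named by rule: the 5 with a pattern most like Ctse or Ctsl, and the 2 highest and 2 lowest of each pathway list. Positions are from GENCODE vM21 (GRCm38), promoters from RefSeq. Alternatives covered scaling, thinning, summing, single cells, cell filters, doublets, gates and count filters.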

Additional observations from a re-analysis of the deposited data

Results flagged for a closer look

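Ctsl and Ctsb drew attention because their ratio took the opposite direction in Cd74-rich cells from that in other stages. For Ctsl the log2 ratio was -2.68 in Cd74-rich cells, while the interval lay above 0 in 5 stages. For Ctsb it was -1.20 in Cd74-rich cells, against intervals above 0 in 2 stages. In neither case was the difference between stages tested, as there is 1 library per genotype. The wild type Cd74-rich cells numbered 8, and 1 of them held 88.9% of the Ctsl UMIs and 1 held 70.8% of the Ctsb UMIs.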

How the results depend on the processing

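No paired analysis was possible because there is 1 library per genotype. Of 834 recomputed log2 ratios, 787 stayed within the reported interval. Sign changes numbered 3 among the 396 whose reported interval left out 0, and 45 among the 438 whose interval held 0. Of 64 counts of genes past the fold 37 moved by over 1.5 times. Every alternative that gave a value kept Ctse above 0 in all 7 stages, from 1.32 to 5.39; some gave none where a library was left with 0 UMIs. Of 112 shares of cells, 74 moved past their interval without thinning. For the values given next, which left the interval, the cause was not tested; they cover Ctse and Ctsl by stage and the other members over all cells. Ctse was 5.39 in cycling cells thinned to 1500 UMIs and 2.25 (-0.56 to 7.69) in the innate-like gate with gates on thinned cells. Ctsl over all cells was 2.36 thinned, 2.41 as a mean over cells, 1.91 with 1 lower limit of UMIs for both libraries and 2.33 at an equal stage mix. Ctsl was 2.52 thinned and 2.30 with lower thresholds in early cells, 2.19 with size factors and 2.19 with gates on thinned cells in cycling cells, 2.57 thinned, 1.08 with gates on thinned cells and 2.64 with the later gate in the innate-like gate, and -0.90 without the richest cells and -0.46 with gates on thinned cells in Cd74-rich cells. Over all cells, thinning gave 0.27 for Ctsb, 0.29 for Ctsd and 0.88 for Ctsw, a mean over cells gave 0.60 for Ctss and 1.01 for Ctsw, and an equal stage mix gave 0.29 for Ctsb, 0.31 for Ctsd, 0.15 for Ctss and 0.84 for Ctsw. The 3 sign changes of values whose interval left out 0 were for Ctsb in the innate-like gate, to -0.10 with gates on thinned cells and -0.059 with the later gate, and for Ctsw in cycling cells, to -0.29 with higher thresholds. By stage, other members also left their interval: thinning gave -0.42 for Ctsb and -0.22 for Ctsd in cycling cells, and gates on thinned cells gave -1.63 for Ctss and 1.12 for Ctsz in the innate-like gate. The 63 genes higher past the fold over all cells became 107 at 20 CPM, 39 at 100 CPM and 38 thinned, and the 16 lower became 7 at 100 CPM, 25 with size factors and 51 thinned. Size factors removed a shift of 0.11 over all cells, 0.20 in cycling cells and 0.16 in the innate-like gate. The equal stage mix, the later innate-like gate and the removal of cells rich in other markers were chosen after the data were seen. Depth limits the early wild type and Cd74-rich wild type values, where 3 UMIs are 14.4 and 77.8 CPM.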
